A study of Mus musculus with 4 samples.

Results

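The hepatocytes of 2 barcode suffixes of a mouse liver cancer series, suffix 3 and suffix 1, were compared over all genes. The series holds 4 droplet libraries of dissociated liver, 1 for each tissue: normal liver at week 0 and tumour tissue at week 4, week 8 and week 10 (week 12 in the series text for the last one) of a liver cancer model that is described as gene-induced, without the gene, vector, strain or age in the labels used here. The deposited matrix pools the 4 libraries, and its barcodes carry the suffixes 1 to 4. Nothing in the files used here maps a suffix to a tissue or a week, so the libraries are called by their suffix throughout, and no direction in time or from normal to tumour is drawn. With 1 library a side there is no replicate, so every difference below is a description of 2 libraries, and each interval covers counting error only.

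A barcode was taken as a hepatocyte when it had at least 500 UMIs (unique molecular identifiers, each counting 1 captured RNA molecule), at least 200 genes and under 20% mitochondrial UMIs, at least 10 UMIs in sum of Alb, Apoa1, Apoa2 and Ttr, and at most 1 UMI in sum of 12 markers of blood, endothelial and stromal cells (Ptprc, Coro1a, Laptm5, Tyrobp, Cd79a, Cd3g, Clec4g, Dnase1l3, Plvap, Egfl7, Dcn and Klf1). This gave 6543 cells, 2362 of suffix 1 and 4181 of suffix 3, of 36150 barcodes that passed the quality limits and 38072 in all; suffixes 2 and 4, used for reference, gave 4389 and 5137. The cells were thus chosen by the measured UMIs of those 16 genes, so their values are no finding. Alb, the plasma albumin gene (ENSMUSG00000029368), stood at 1969 CPM (UMIs of the gene per 1000000 UMIs of the cells) in suffix 1 and 3108 in suffix 3, and at 3268 and 2762 in suffixes 2 and 4. The 12 other hepatocyte markers, which the rule did not use, were all measured with at least 100 UMIs and summed to 12039 and 15221 CPM. Vascular endothelial markers summed to 11.8 and 8.92, lymphocyte markers to 13.8 and 11.1 and stellate cell markers to 7.06 and 5.60 CPM. Sinusoidal endothelial markers summed to 51.4 and 35.4 CPM. The rule leaves out cells of these types, so their low sums are no finding. Macrophage, neutrophil, erythroid and bile duct markers are given below. Cells just inside the lower limit, with 10 or 11 UMIs of the 4 chosen genes, numbered 349 and 413 in suffixes 1 and 3, and 375 and 548 lay just outside with 8 or 9. Saa1, a gene that the rule did not use, stood at 16.4 and 932 CPM inside and 15.2 and 855 outside.

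Hepatocytes make most plasma proteins, dispose of ammonia as urea and glutamine, and break down drugs, fats and amino acids. Inflammatory signals, chiefly interleukin-6 and interleukin-1 acting through STAT3, NF-kappaB and C/EBP factors, switch these cells to the acute-phase response, in which serum amyloid A, fibrinogen, haptoglobin, metallothioneins and the iron hormone hepcidin are made in large amounts. Growth hormone pulses keep a second set of genes on in male liver, among them major urinary proteins and Elovl3, and beta-catenin keeps Glul on around the central vein. H19, Igf2 and Afp are fetal liver genes that adult hepatocytes keep off and that liver tumours often express.

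Some of the largest differences lay in acute-phase genes. The upstream sequences of 5 of them are shown here because all 5 were higher in suffix 3 and are known targets of inflammatory or metal signals. The sequences are the 250 bases before each RefSeq start site on GRCm38.p6, 5′ to 3′ on the gene's own strand. Capitals mark letters that match a motif searched on both strands: TTGCNNAA, a C/EBP-type sequence, for the serum amyloid genes, TGCGCNC or TGCACNC, the core of the metal response element, for the metallothioneins, and TTCNNNGAA, a STAT-type sequence, for hepcidin. Saa1 lies at chr7:46742981-46743230, minus strand, Saa2 at chr7:46751583-46751832, plus strand, Mt1 at chr8:94178839-94179088, plus strand, Mt2 at chr8:94172368-94172617, plus strand, and Hamp at chr7:30944030-30944279, minus strand.
Saa1: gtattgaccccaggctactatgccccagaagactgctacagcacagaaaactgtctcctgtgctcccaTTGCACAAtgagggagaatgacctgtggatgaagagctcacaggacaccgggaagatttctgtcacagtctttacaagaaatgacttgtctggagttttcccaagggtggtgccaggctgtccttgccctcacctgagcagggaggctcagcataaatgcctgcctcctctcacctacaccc
Saa2: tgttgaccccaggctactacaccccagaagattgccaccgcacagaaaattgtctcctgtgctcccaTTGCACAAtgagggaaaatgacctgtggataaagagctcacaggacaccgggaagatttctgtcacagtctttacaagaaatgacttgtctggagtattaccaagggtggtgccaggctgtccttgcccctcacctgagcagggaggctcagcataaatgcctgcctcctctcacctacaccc
Mt1: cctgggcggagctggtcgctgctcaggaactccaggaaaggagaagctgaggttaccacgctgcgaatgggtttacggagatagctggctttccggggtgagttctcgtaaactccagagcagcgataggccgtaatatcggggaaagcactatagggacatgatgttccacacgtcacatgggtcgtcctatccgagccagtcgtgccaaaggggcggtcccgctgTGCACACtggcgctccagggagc
Mt2: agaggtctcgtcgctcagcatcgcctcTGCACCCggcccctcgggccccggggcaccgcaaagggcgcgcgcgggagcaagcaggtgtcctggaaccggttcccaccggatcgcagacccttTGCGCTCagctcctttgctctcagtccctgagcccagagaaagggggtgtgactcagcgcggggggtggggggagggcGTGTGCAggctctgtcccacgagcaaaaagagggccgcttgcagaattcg
Hamp: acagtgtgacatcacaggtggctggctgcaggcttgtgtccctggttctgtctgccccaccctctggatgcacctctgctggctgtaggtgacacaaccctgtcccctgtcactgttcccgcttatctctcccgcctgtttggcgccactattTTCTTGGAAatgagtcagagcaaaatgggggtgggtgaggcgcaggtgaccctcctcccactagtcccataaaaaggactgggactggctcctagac
The upstream windows of Saa1 and Saa2 were identical at 238 of 251 aligned positions (94.8%). Each held 1 C/EBP-type match, which is found in 9.56% of the 32851 RefSeq windows of that length. Mt2 held 3 metal response cores and Mt1 held 1, where 21.4% of windows have any. The STAT-type match in the Hamp window began 97 bases before the start, and 7.02% of windows have one. These matches are letters and not shown to be bound sites.

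The 2 sets of cells differed in more than their hepatocyte genes, and those values come first. Median depth was 1826 UMIs in suffix 1 and 2121 in suffix 3, and the middle 90% of cells ran from 1005 to 5095 and from 607 to 10734. Mitochondrially encoded RNA made up 0.240% of UMIs in suffix 1 against 1.78% in suffix 3, 2.41% in suffix 2 and 1.67% in suffix 4. No mitochondrial UMI at all was seen in 1416 hepatocytes of suffix 1 (59.9%), in 2 of suffix 3, in 0 of suffix 2 and in 17 of suffix 4. Barcodes with at least 3 UMIs of the exclusion markers and fewer than 10 of the 4 hepatocyte genes, called other cells below, had a median mitochondrial share of 1.04% in suffix 1, 3.59% in suffix 3, 1.88% in suffix 2 and 2.30% in suffix 4. Suffix 1 was thus the lowest library in its other cells too, but there its median was above 0, as it was not in its hepatocytes. Nuclear-retained RNAs, a list made after the data had been seen, were also higher in suffix 3: Malat1, Neat1, Kcnq1ot1, Gm26917 and Meg3 were called (5 of 5 tested), and the list summed to 412 CPM in suffix 1 and 1300 in suffix 3. Suffixes 1 and 3 shared 113 barcode sequences (1.23% of the smaller library), 14 of them among hepatocytes. How far the gap in mitochondrial and nuclear RNA goes with other genes was measured by comparing cells of like mitochondrial share: 449 against 1192 cells of 0.1% to under 1%, and 56 against 2947 cells of 1% to under 20% that also had fewer than 3 UMIs of 7 bile duct markers. Like share here means the same range, and not the same share or depth. At 0.1% to 0.5% there were 372 cells of suffix 1 and 511 of suffix 3, and at 0.5% to 1% 77 and 681. Median depth in these 2 parts was 1789.5 and 1752 UMIs in suffix 1 against 6953 and 3791 in suffix 3. At 1% to 5%, with bile duct marker cells kept, it was 2334.5 against 1784. These 2 restricted comparisons were chosen after the data had been seen, and their values are given for the groups and genes that they move most.

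**Figure D1:**
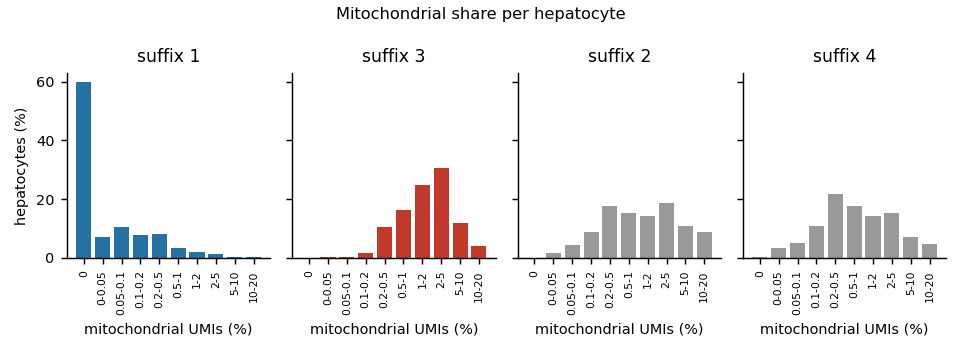
Share of hepatocytes (vertical axis, percent) by the mitochondrial share of each cell's UMIs (horizontal axis, percent) in the 4 suffixes; the first bar of each panel is cells with 0 mitochondrial UMIs. In suffix 1 that bar holds 59.9% of cells, in suffix 3 it holds 2 cells of 4181.

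Of 7668 genes with at least 100 UMIs over both sets, 678 (8.84%) were at least 2-fold higher in suffix 3 and 190 (2.48%) at least 2-fold lower, with a 95% counting interval that left out no difference. Of the 678 genes, 550 were also at least 2-fold higher in both suffix 2 and suffix 4 than in suffix 1. For 56 of the 678, suffix 3 was at least 2-fold above both suffix 2 and suffix 4. Of the 190 genes, 96 were also at least 2-fold lower in both suffix 2 and suffix 4 than in suffix 1. For 30 of the 190, suffix 3 was at least 2-fold below both suffix 2 and suffix 4. Ratios of at least 4-fold were seen for 202 genes in the higher direction and 20 in the lower. The median log2 ratio of all tested genes was -0.04, and the middle of the distribution ran from -0.35 to 0.35. The shares 8.84% and 2.48% are the background for the counts of gene groups over all cells that follow. They do not hold in restricted sets of cells. Over all genes, 232 were called higher and 129 lower at 0.1% to under 1% mitochondrial UMIs. At 1% to under 20% without bile duct marker cells the counts were 154 and 220. They were 488 and 197 in cells with 0 H19 UMIs, and 811 and 172 without bile duct marker cells alone. How many genes were tested in these sets is not given, so group counts there have no background share.

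**Figure D2:**
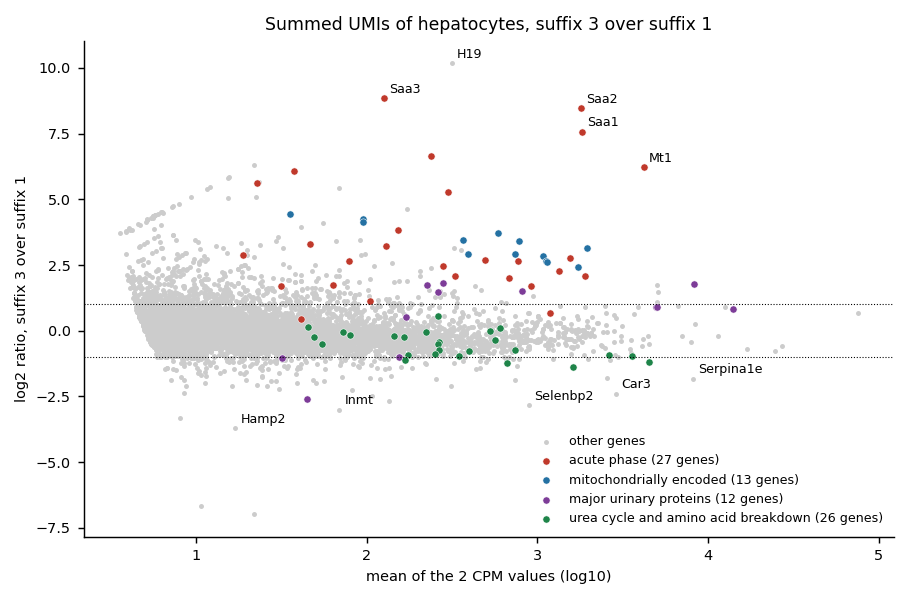
Each point is 1 of the 7668 genes, by the mean of its 2 CPM values (log10, horizontal axis) and its log2 ratio of suffix 3 over suffix 1 (vertical axis; genes with under 3 UMIs on a side are set to 3 UMIs there); dotted lines mark 2-fold. Acute-phase and mitochondrially encoded genes lie above the lines with few exceptions, Saa1, Saa2 and Mt1 far above, and genes of the urea cycle and amino acid breakdown lie at or below 0 for the most part.

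Acute-phase genes were higher in suffix 3 than in suffix 1 nearly throughout. Of 27 tested members 25 were called higher and 0 lower, with a median log2 ratio of 2.68 against -0.04 for all genes. For 12 of the 25, suffix 3 was at least 2-fold above both suffix 2 and suffix 4. For 15 of the 25, suffixes 2 and 4 were both at least 2-fold above suffix 1. Their summed level was 4135 CPM in suffix 1, 33104 in suffix 3, 10118 in suffix 2 and 6112 in suffix 4. Among cells of 0.1% to under 1% mitochondrial UMIs 23 of 27 were called higher, and among those of 1% to under 20% 14 of 27, with 0 lower in either.

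Saa1 (ENSMUSG00000074115), 1 of the 2 main serum amyloid A proteins that ride on HDL during inflammation, stood at 18.8 CPM in suffix 1 (104 UMIs), 3606 in suffix 3 (52152 UMIs), 6.50 in suffix 2 and 8.06 in suffix 4. Its ratio of suffix 3 over suffix 1 was 192-fold (95% counting interval 158 to 235). Suffix 3 therefore stood alone among the 4 libraries. On the log2 scale the ratio of Saa1 was 7.58 over all cells and 7.82 and 5.84 in the sets of like mitochondrial share, and that of Mt1, described next, was 6.22, 6.69 and 6.20. Saa2 (ENSMUSG00000057465), the other main form, stood at 10.1, 3591, 2.45 and 2.86 CPM in suffixes 1, 3, 2 and 4, a ratio of 354-fold (273 to 469). The transcripts of Saa1 and Saa2 are closely alike, so reads could be shared between them in the authors' counting, and their split is uncertain. Saa3, a form made also by macrophages, had 2 UMIs in suffix 1 (0.362 CPM) and 250 CPM in suffix 3, with 17.2 and 5.98 CPM in suffixes 2 and 4, and a ratio of 692-fold whose interval runs from 191 to 5714.

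Metallothioneins, small proteins that bind zinc and copper and are induced by metals, glucocorticoids and inflammation, differed nearly as much. Mt1 (ENSMUSG00000031765) stood at 111 CPM in suffix 1 and 8261 in suffix 3, with 1344 in suffix 2 and 654 in suffix 4, a ratio of 74.7-fold (69.0 to 81.0). Mt2 stood at 4.71, 471, 152 and 70.0 CPM in suffixes 1, 3, 2 and 4, a ratio of 100-fold (68.2 to 153). Suffix 1 was the lowest of the 4 libraries for both. The gap in Mt1 was not seen in the other cells, where it stood at 690 CPM in suffix 1 and 678 in suffix 3. Saa1 did differ in the other cells, at 0.925 CPM in suffix 1 and 89.4 in suffix 3. The latter is well under the hepatocyte level in suffix 3.

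Other acute-phase genes followed with smaller ratios. Lcn2, a secreted protein of hepatocytes and neutrophils that captures bacterial iron carriers, stood at 15.0 CPM in suffix 1, 585 in suffix 3, 276 in suffix 2 and 96.2 in suffix 4, a log2 ratio of 5.28 (4.97 to 5.61), but in the other cells of suffix 3 it reached 477 CPM. Of its 83 UMIs in suffix 1, 72 lay in cells of 1% to 5% mitochondrial UMIs. At 1% to under 20% without bile duct marker cells, suffix 1 had 0 Lcn2 UMIs. Orm2, an acid glycoprotein of plasma with close copies, stood at 1.09, 73.6, 19.6 and 9.96 CPM, a log2 ratio of 6.08. Fgb, the fibrinogen beta chain, stood at 212, 1322, 875 and 520 CPM, a log2 ratio of 2.64. Cxcl1, a chemokine that draws neutrophils and 1 of the 12 genes with the largest ratios, stood at 3.08, 134, 46.7 and 14.4 CPM, a log2 ratio of 5.44. For these 4 genes suffix 1 was lowest and suffix 3 highest, with suffixes 2 and 4 between them. In cells of 1% to under 20% mitochondrial UMIs the log2 ratio of Fgb was 0.78 (0.54 to 1.03), so its 2-fold call was lost there.

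Hepcidin behaved differently across the libraries. Hamp, which encodes the hormone that blocks iron export and is induced through STAT3 in inflammation, stood at 725 CPM in suffix 1, 3085 in suffix 3, 45.4 in suffix 2 and 60.0 in suffix 4. Its ratio of suffix 3 over suffix 1 was 4.25-fold (4.12 to 4.39), and suffixes 2 and 4 lay below both. Its near copy Hamp2 went the other way, with 31.5 CPM in suffix 1, 2.42 in suffix 3, 5.20 in suffix 2 and 8.33 in suffix 4, a ratio of 13.0-fold lower in suffix 3 (9.01 to 19.3). Of the 11 tested iron-handling genes 5 were called higher and 1 lower. Tfr2, which senses transferrin and feeds into hepcidin, stood at 7.42, 22.1, 44.8 and 28.5 CPM, and Slc39a14, a zinc and iron importer, at 4.16, 18.7, 32.1 and 16.9 CPM in suffixes 1, 3, 2 and 4. In cells of 1% to under 20% mitochondrial UMIs Tfr2 turned to a log2 ratio of -1.31 (-2.11 to -0.38) and Slc39a14 stood at 0.03 (-1.35 to 1.92), while Hamp kept 1.61 (1.36 to 1.87).

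**Figure D3:**
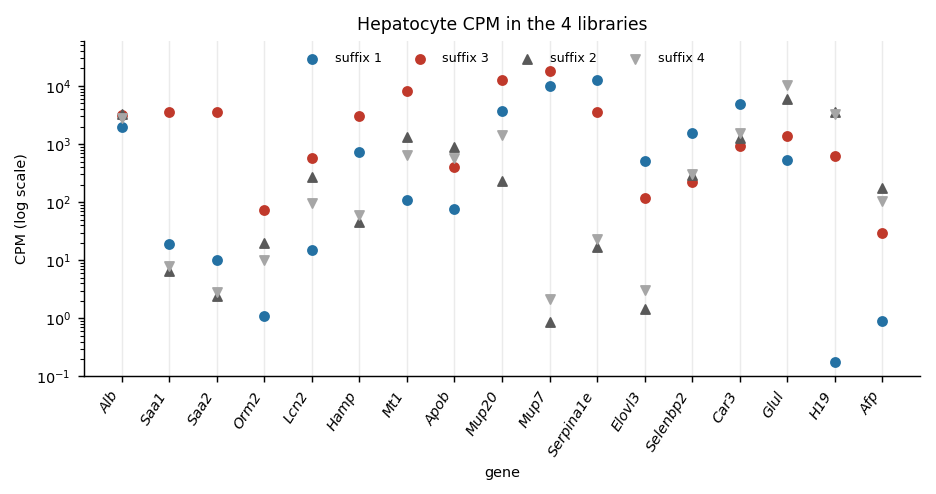
CPM of summed hepatocyte UMIs (vertical axis, log scale) for 17 named genes in suffixes 1 (blue), 3 (red), 2 and 4 (grey), 1 point a library and so no error bar. Saa1 and Saa2 are at 3606 and 3591 CPM in suffix 3 and under 20 CPM in the other 3 libraries, while Mup7, Serpina1e and Elovl3 are high in suffixes 1 and 3 and under 25 CPM in suffixes 2 and 4.

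Saa1 and Mt1, the acute-phase genes looked at by cell, were seen in most cells of suffix 3 and in few of suffix 1. In suffix 3 the amount of Saa1 was uneven between cells. After each cell was thinned to 1000 UMIs, which kept 2248 cells of suffix 1 and 3321 of suffix 3 and left out 114 and 860 shallower ones, 1.73% of cells had a Saa1 UMI in suffix 1 (exact binomial interval 1.24 to 2.36%) and 72.5% in suffix 3 (70.9 to 74.0%). Before thinning, 756 of 4181 cells of suffix 3 (18.1%) had 0 Saa1 UMIs. Other cells thinned alike gave 0.0793% and 8.74%. Free RNA in the droplets was not measured, and its part in these shares was not tested. An Mt1 UMI was seen in 9.12% of thinned hepatocytes in suffix 1 and 84.4% in suffix 3, against 31.1% and 27.1% of other cells. No hepatocyte of suffix 1 had more than 4 Saa1 UMIs, whereas 1082 cells of suffix 3 (25.9%) had 11 or more. Those 1082 cells held 42902 Saa1 UMIs. The 853 cells of suffix 3 with 5 to 10 held 5967, and the 1490 with 1 to 4 held 3283. Median depth in these ranges was 4463, 2207 and 1502 UMIs, so they differ in depth as well.

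**Figure D4:**
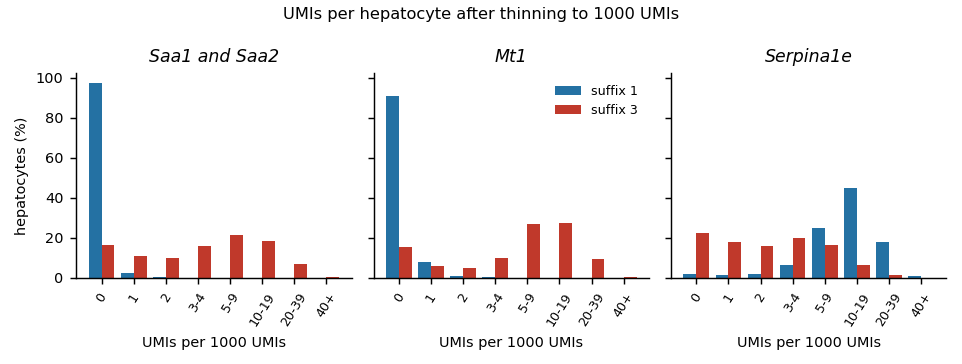
Share of hepatocytes (vertical axis, percent) by UMIs of Saa1 and Saa2 together, Mt1 and Serpina1e (horizontal axis, UMIs per 1000 UMIs of the thinned cell) in suffixes 1 (blue) and 3 (red). Cells of suffix 1 pile up at 0 for the amyloid genes and Mt1 and between 5 and 39 for Serpina1e; cells of suffix 3 are spread from 0 to 39 for the amyloid genes and Mt1 and lie mostly at 0 to 4 for Serpina1e.

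Stress and secretory-pathway genes were also higher in suffix 3. In the unfolded protein response, which enlarges the folding capacity of the endoplasmic reticulum, 9 of 12 tested genes were called higher and 0 lower (median log2 ratio 1.73). Hspa5, the main chaperone there, stood at 33.3 CPM in suffix 1, 186 in suffix 3, 215 in suffix 2 and 135 in suffix 4. Pdia4, a disulphide isomerase of the same compartment, stood at 15, 84.8, 69.7 and 44.5 CPM in suffixes 1, 3, 2 and 4. At like mitochondrial share these counts were 4 of 10 and 3 of 11, and the log2 ratio of Hspa5 was 2.48 over all cells, 0.08 (-0.37 to 0.57) at 0.1% to under 1% and 1.14 (0.55 to 1.80) at 1% to under 20%. For Pdia4 the values were 2.50, 1.05 and 0.99. The size of this difference moved with the mitochondrial share, whose part in the result was not tested. Of the 9 genes called over all cells, 5 were at least 2-fold higher in both suffix 2 and suffix 4 than in suffix 1. For 1 of the 9, suffix 3 was at least 2-fold above both suffix 2 and suffix 4.

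Among immediate early and heat shock genes, which respond within minutes to stress and to tissue dissociation, 11 of 21 were called higher and 0 lower (median log2 ratio 1.01). At like mitochondrial share the counts were 5 of 12 and 1 of 18. Of the 11 genes called over all cells, 10 were at least 2-fold higher in both suffix 2 and suffix 4 than in suffix 1. For 0 of the 11 was suffix 3 at least 2-fold above both suffix 2 and suffix 4. Gadd45g, a stress gene that interleukin-6 signalling can induce, stood at 15.4, 167, 138 and 117 CPM in suffixes 1, 3, 2 and 4, with a log2 ratio of 3.44 over all cells, 3.28 at 0.1% to under 1% and 1.12 at 1% to under 20%. Socs3, the feedback inhibitor of interleukin-6 signalling, stood at 3.08, 20.2, 24.5 and 18.3 CPM. Among p53 and Nrf2 targets 5 of 12 were called higher and 0 lower. Cdkn1a, the p21 cell cycle inhibitor, stood at 11.2, 121, 135 and 100 CPM, with log2 ratios of 3.43 over all cells and 5.18 and 2.72 in the 2 restricted sets. Of 17 tested interferon-response genes 6 were called higher, among them Bst2, a tether of budding virus, at 117, 346, 465 and 372 CPM, and Zbp1, a nucleic acid sensor, at 13.9, 35.4, 12.8 and 8.98 CPM.

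Genes that male liver keeps on under growth hormone split by member. Of 15 tested male-biased genes 3 were called higher and 5 lower (median log2 ratio -0.05). Y-linked RNA was present in all 4 libraries (Ddx3y, 578, 1444, 589 and 1423 UMIs over the passing barcodes of suffixes 1 to 4), Xist had 0, 4, 0 and 2 UMIs, and 0 of 18 female-biased genes reached 100 UMIs. Serpina1e (ENSMUSG00000072849), 1 of a cluster of near-identical alpha-1-antitrypsin genes, stood at 12750 CPM in suffix 1, 3591 in suffix 3, 16.8 in suffix 2 and 23.6 in suffix 4. It was 3.55-fold lower in suffix 3 than in suffix 1 (3.51 to 3.59), and far above suffixes 2 and 4 in both. Elovl3, an enzyme that lengthens fatty acids, stood at 503, 116, 1.46 and 3.03 CPM, and Hsd3b5, a steroid dehydrogenase of male liver, at 163, 46.9, 0.442 and 0.510 CPM. The log2 ratios of these 3 genes were -1.83, -2.11 and -1.79 over all cells, and -1.75, -2.06 and -1.78 in cells of 0.1% to under 1% mitochondrial UMIs. Selenbp2, a selenium-binding protein, stood at 1558, 219, 292 and 309 CPM and so was the lowest in suffix 3.

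Major urinary proteins, pheromone carriers that male mouse liver makes in bulk, were higher in sum: 21967 CPM in suffix 1, 46545 in suffix 3, 251 in suffix 2 and 1474 in suffix 4. Of 12 tested members 5 were called higher and 3 lower. Mup20, also called darcin, stood at 3701, 12790, 230 and 1404 CPM in suffixes 1, 3, 2 and 4, 3.46-fold higher in suffix 3 (3.41 to 3.51). Mup7 stood at 10089, 18047, 0.850 and 2.18 CPM, and Mup2 at 76.7, 12.6, 0.612 and 1.22 CPM. The family is nearly identical in sequence, so the split among its members is uncertain. At 0.1% to under 1% mitochondrial UMIs 4 of 12 members were called higher and 1 lower, and at 1% to under 20% 1 of 11 and 3. The log2 ratio of Mup20 was 1.79 over all cells, 1.78 in the first set and 0.43 (0.34 to 0.52) in the second, which holds 56 cells of suffix 1.

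The genes lowest in suffix 3 against suffix 1, among those of at least 50 CPM on a side, included several enzymes. Inmt, a methyltransferase of indole amines, stood at 123 CPM in suffix 1, 15.3 in suffix 3, 9.63 in suffix 2 and 9.69 in suffix 4, 8.01-fold lower in suffix 3 (6.87 to 9.36). Hpgd, which inactivates prostaglandins, stood at 233, 36.6, 155 and 182 CPM, 6.38-fold lower (5.76 to 7.07). Car3, an abundant carbonic anhydrase of liver and fat, stood at 4849, 922, 1256 and 1553 CPM, 5.26-fold lower (5.15 to 5.37). In the other cells Hpgd also differed, at 364 and 70.6 CPM. Afmid, an enzyme of tryptophan breakdown, stood at 136, 28.1, 20.9 and 27.6 CPM, and Gsta2, a glutathione transferase with close copies, at 50.1, 10.9, 54.5 and 58.8 CPM. Pttg1, the anaphase inhibitor securin, stood at 182, 32.5, 62.7 and 45.9 CPM. At like mitochondrial share these genes stayed lower in suffix 3 where they were measured, by amounts that differed. Gsta2 was measured only at 0.1% to under 1%, with a log2 ratio of -2.22 (-2.78 to -1.65). Inmt had a log2 ratio of -3.00 over all cells, -2.87 at 0.1% to under 1% and -3.96 (-4.55 to -3.34) at 1% to under 20%. Hpgd had -2.67, -2.65 and -1.86 (-2.52 to -1.13), and Car3 had -2.39, -2.37 and -1.82 (-1.95 to -1.68).

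Amino acid breakdown and the urea cycle leaned lower. Of 26 tested members 4 were called lower and 0 higher, with a median log2 ratio of -0.51, and the median was -0.60 and -0.51 at like mitochondrial share. Gnmt, which disposes of excess methyl groups, stood at 6312 CPM in suffix 1, 2741 in suffix 3, 1661 in suffix 2 and 4467 in suffix 4. Hpd, of tyrosine breakdown, stood at 2327, 902, 1732 and 3530 CPM, and Tdo2, the first enzyme of tryptophan breakdown, at 935, 394, 608 and 740 CPM. Ass1, of the urea cycle, was not called, at 4731 and 2448 CPM in suffixes 1 and 3. Oxidative phosphorylation genes of the nucleus had a median log2 ratio of -0.32, with 0 of 45 called, while all 13 mitochondrially encoded genes were called higher (median log2 ratio 3.13). At like mitochondrial share 5 and 2 of those 13 were called. Those cells were chosen by the UMIs of these same genes, so the smaller counts are no finding.

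Zonation and metabolism gave counts that moved with the mitochondrial share. Over all cells 8 of 19 pericentral genes were called higher and 2 lower (median log2 ratio 0.91). Among them were Cyp7a1, the rate-limiting enzyme of bile acid synthesis, at 2.71, 19.4, 65.8 and 72.3 CPM in suffixes 1, 3, 2 and 4, and Slco1b2, an uptake transporter, at 42.3, 166, 365 and 355 CPM. At 0.1% to under 1% mitochondrial UMIs 1 of 15 was called higher and 1 lower, and at 1% to under 20% 0 of 18 and 4. Of 18 periportal genes 0 were called higher and 1 lower, Etnppl, a lyase of phosphoethanolamine, at 76.0, 20.9, 25.5 and 14.3 CPM. Of 23 drug metabolism genes 9 were called higher and 2 lower over all cells, 0 and 2 of 19 in the first restricted set, and 0 and 8 of 23 in the second.

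Cyp3a11, a major drug-metabolising enzyme, showed this turn, with 81.1 CPM in suffix 1 and 188 in suffix 3 over all cells but log2 ratios of -0.12 and -1.61 in the restricted sets. Apob, the scaffold protein of very low density lipoprotein with a very long transcript, did so too: it stood at 76.7, 397, 893 and 587 CPM, a log2 ratio of 2.37, and at 0.22 and -0.43 in the restricted sets. Of 27 plasma carriers and clotting factors 14 were called higher and 2 lower over all cells, but 0 and 4 of 25, and 0 and 8 of 27, at like mitochondrial share. Fatty acid synthesis gave 6 of 13 higher and 1 lower, with Fasn, the fatty acid synthase, at 36.9, 89.4, 276 and 238 CPM, and then 1 of 9 and 0 of 12 higher. The log2 ratio of Fasn was 1.62 (1.02 to 2.29) in the first restricted set and 0.04 (-0.67 to 0.86) in the second. For the plasma carrier, drug and pericentral lists the counts thus moved with the mitochondrial share, whose part in the result was not tested. Fabp5, a fatty acid carrier, stood at 70.2, 338, 210 and 56.3 CPM, and its log2 ratio was 2.27 over all cells and 2.34 and 2.77 in the restricted sets.

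**Figure D5:**
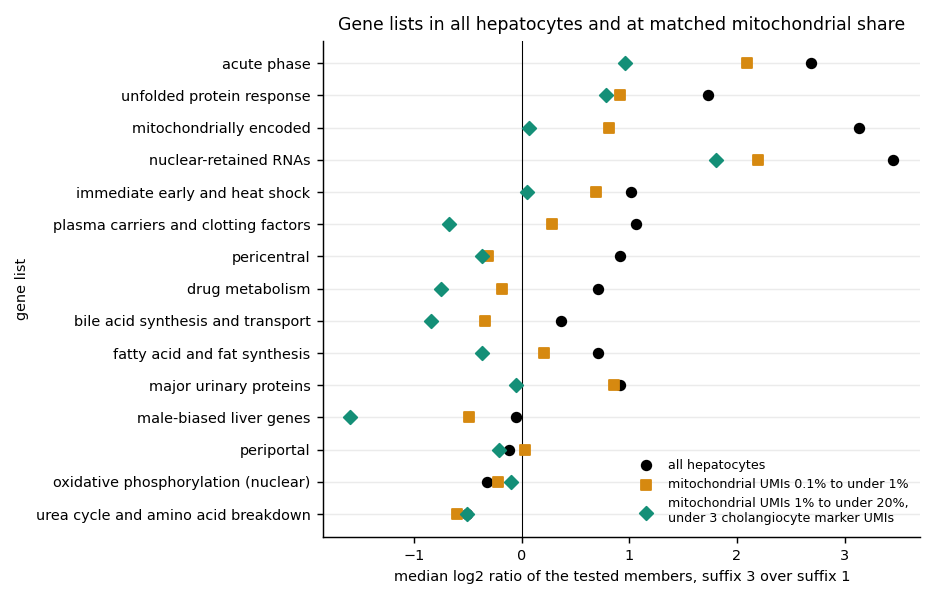
Median log2 ratio of suffix 3 over suffix 1 (horizontal axis) for the tested members of 15 gene lists (vertical axis), over all hepatocytes (black), cells of 0.1% to under 1% mitochondrial UMIs (orange) and cells of 1% to under 20% with fewer than 3 bile duct marker UMIs (green). Acute-phase genes stay above 0 in all 3 (2.68, 2.09 and 0.96), urea cycle and amino acid genes stay below (-0.51, -0.60 and -0.51), and the pericentral, drug, bile acid and plasma carrier lists cross 0.

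Among fetal and tumour genes, H19, Igf2 and Afp were far higher in suffix 3, and most of the H19 there lay in few cells. H19, an imprinted fetal RNA (ENSMUSG00000000031), had 1 UMI in suffix 1 and 9099 in suffix 3, or 0.181 and 629 CPM, against 3597 CPM in suffix 2 and 3337 in suffix 4. Its ratio of suffix 3 over suffix 1 was 3476-fold, with an interval from 624 to 137316. Igf2, the fetal growth factor next to it, had 0 UMIs in suffix 1 and 348 in suffix 3 (24.1 CPM), at least 44.3-fold higher against a floor of 3 UMIs for the library, with 580 and 401 CPM in suffixes 2 and 4. Afp, the fetal albumin, stood at 0.905, 29.9, 172 and 103 CPM in suffixes 1, 3, 2 and 4. Of 17 tested fetal and carcinoma genes 8 were called higher and 2 lower, and 10 of 12 and 0 without the cells that carried 3 or more bile duct marker UMIs. For H19, Igf2 and Afp suffix 3 lay between suffix 1 and the pair of suffixes 2 and 4.

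In suffix 3, 134 cells (3.20%) with 11 or more H19 UMIs held 8142 of the 9099 UMIs (89.5%), 3480 cells had none, and 50 cells lay near that limit with 4 to 10. Among thinned cells 10.9% had an H19 UMI in suffix 3, against 5.28% of its other cells, 78.5% of hepatocytes in suffix 2 and 67.6% in suffix 4. The part of free RNA in single H19 UMIs was not tested. The 134 cells differed from the 3480 in the acute-phase and male genes: Saa1 stood at 151 against 4014 CPM, Mt1 at 523 against 9116, Mup20 at 1623 against 14133 and Serpina1e at 307 against 3913. They were higher in Glul, 4174 against 1069 CPM, Igf2, 249 against 4.64, and Afp, 184 against 15.3. Of the 432 Afp UMIs in suffix 3, 201 lay in the 134 cells and 178 in the 3480, and in cells without H19 the log2 ratio of Afp over suffix 1 was 4.08. Cells with more H19 UMIs also tended to be deeper (median 5318 against 2086 UMIs), so the 2 ranges differ in depth as well, and they are ranges of 1 measure and not cell types.

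Without the cells that had an H19 UMI, 24 of 27 acute-phase genes were called higher, with log2 ratios of 7.74 for Saa1 and 6.36 for Mt1. This left out 1 cell of suffix 1, and the cells left out of suffix 3 were lower in Saa1 and Mt1. These values are thus no finding. The cell cycle list gave 15 of 19 higher and 1 lower over all cells, and 6 of 12 and 1 in cells without H19. Birc5, a mitotic regulator, had 1 UMI in suffix 1 and stood at 31.0 CPM in suffix 3, with 112 and 46.5 in suffixes 2 and 4. Mki67, the proliferation marker Ki-67, had 0 UMIs in suffix 1 and stood at 11.2 CPM in suffix 3 (at least 20.6-fold higher against the floor of 3 UMIs), with 50.6 and 15.7 in suffixes 2 and 4. Myc, the growth regulator, stood at 2.90, 25.9, 247 and 211 CPM. Of 19 Myc and nucleolar genes 4 were called higher and 0 lower, and 1 without the H19 cells.

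Glul, glutamine synthetase (ENSMUSG00000026473), which marks the cells around the central vein and responds to beta-catenin, stood at 534 CPM in suffix 1, 1351 in suffix 3, 5912 in suffix 2 and 10332 in suffix 4. Of 9 tested beta-catenin targets 7 were called higher and 0 lower, among them Nkd1 at 1.99 and 15.4 CPM in suffixes 1 and 3 and Axin2 at 6.15 and 14.0 CPM, both feedback inhibitors of the pathway. At like mitochondrial share 1 of 4 and 1 of 8 of these targets were called higher and 0 lower. Glul lost its 2-fold call there, with log2 ratios of 1.34 over all cells, 0.66 (0.54 to 0.78) and 0.29 (0.09 to 0.50). Cells with 11 or more Glul UMIs numbered 74 in suffix 1 (3.13%) and 390 in suffix 3 (9.33%). Their median depth was 2566 and 4012.5 UMIs, so these shares were not taken at like depth. In suffix 1 those cells had 0 H19 UMIs, 4152 CPM of Serpina1e and 1005 of Selenbp2. In suffix 3 they stood at 2578 CPM of H19, 533 of Serpina1e and 47.4 of Selenbp2, and at 480 CPM of Saa1 against 4793 in the 1922 cells with 0 Glul UMIs. Glul-high cells therefore differed between the libraries in these genes.

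Markers of other cell types moved with the comparison in places. Bile duct markers summed to 1265 CPM in suffix 1 and 362 in suffix 3, with 3 of 5 tested members lower, led by Spp1 (osteopontin) at 1163, 317, 15.8 and 5.37 CPM. They sat in 36 cells of suffix 1 and 32 of suffix 3 with 3 or more such UMIs, which held 98.9% and 94.6% of the counts, and 31 of the 36 were among the 87 cells of suffix 1 with at least 1% mitochondrial UMIs. Without those cells the log2 ratio of Spp1 went from -1.88 to 0.41 (-0.23 to 1.10), on 26 UMIs in suffix 1 and 92 in suffix 3. Spp1 is itself 1 of the markers that chose those cells, so this change is no finding. Erythroid markers summed to 129 and 381 CPM, with 4 of 6 higher. In suffix 3, 12 cells with 10 or more of these UMIs held 73.9% of them. Neutrophil markers summed to 5.07 and 24.0 CPM, and their main member S100a9 stood at 3.08 and 13.6 CPM in hepatocytes against 1833 and 10730 in other cells. Macrophage markers summed to 88.9 and 52.4 CPM. The part of these cells in the results was not tested. With the bile duct marker cells left out, and no others, the acute-phase genes gave 25 of 27 higher.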

How the data were processed

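Single-cell RNA libraries of mouse liver tissue (Single Cell 3′ kit v.3, per the labels) were deposited as 1 matrix of UMI counts, 31053 genes by 38072 barcodes. The authors made these counts with Cell Ranger 6.0.1, per the file headers, and mm9 is the build in the submitters' processing notes. The annotation and the joining of the libraries are not given in the sources used here. Barcode suffixes 1 to 4 carry no map to samples, so none was assigned.

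The members and gene lists were chosen with earlier results of these data known. UMIs of the chosen hepatocytes were summed within each suffix and scaled to UMIs per 1000000 (CPM). The ratio of suffix 3 over suffix 1 was given an exact conditional binomial 95% interval. A gene was called when it had at least 100 UMIs over both suffixes, a ratio of at least 2 and an interval without 1. With 1 library a side there is no replicate, no test and no p-value, and intervals and the floor of 3 UMIs cover counting error only. Named genes are, of each of 45 lists, up to 6 called members and up to 2 of highest CPM, the 12 largest ratios each way among genes of at least 50 CPM, and the 4 selection markers, with the nuclear RNAs and the 12 exclusion markers named besides; 2 genes of the rule are not reported here. Shares of cells with a UMI were taken after thinning to 1000 UMIs. Doublets were not removed; leaving out Scrublet scores above 0.25 was an alternative. Upstream sequences came from RefSeq tables on GRCm38.p6 and were searched with Biopython 1.88. Computation used Python 3.11.15, numpy 2.4.6, scipy 1.17.1, pandas 2.3.3 and scanpy 1.11.5, and the calling of genes was tested on simulated data. The comparisons at like mitochondrial share, without bile duct marker cells, without H19 cells and with a Malat1 UMI, and the list of nuclear RNAs, were added after the data had been seen.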

Additional observations from a re-analysis of the deposited data

How the results depend on the processing

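With 678 genes higher and 190 lower in suffix 3 over all cells, the higher count came to 420 in cells with at least 30 UMIs of the 4 selection markers, 355 in cells with at most 1 Glul UMI, 279 after thinning, 393 in cells with a Malat1 UMI, 232 at 0.1% to under 1% mitochondrial UMIs, 318 at 1% to under 20%, and 154 there without bile duct marker cells. The lower count came to 843 at 1% to under 20% mitochondrial UMIs, where 31 of 87 cells of suffix 1 carried bile duct markers, and to 303 in cells with a Malat1 UMI. With no filter on UMIs the counts were 1343 and 644, and at 500 UMIs 242 and 91. Fewer cells or genes entered most of these; otherwise the cause was not tested. Median scaling, leaving out the top 50 genes, equal weighting of cells, 2000 UMIs per cell, under 5% mitochondrial UMIs, 0 exclusion UMIs, leaving out doublet scores above 0.25, leaving out bile duct marker cells and leaving out H19 cells stayed within 1.5 times of both counts.

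All 153 called named genes reported here kept their direction under the 2 other scalings, equal weighting and without doublet scores above 0.25. At 0.1% to under 1% mitochondrial UMIs 103 of 106 did, with log2 ratios of -0.12 for Cyp3a11, -0.064 for Cyp2a5 and -0.11 for Cyp1a2. At 1% to under 20% without bile duct marker cells 100 of 134 did, on 56 cells of suffix 1. The other 34 had log2 ratios of -0.43 for Apob, -0.84 for Trf, -1.61 for Cyp3a11, -0.27 for Rhbg, -0.74 for Slco1b2, -1.27 for Gulo, -0.39 for Por, -1.36 for Cyp2a5, -0.12 for Cyp1a2, -0.14 for Ephx1, -1.08 for Abcb11, -1.07 for Mup11, -0.48 for F5, -0.035 for F7, -0.046 for Meg3, 0.20 for Anxa5, -0.15 for Notum, -1.12 for Egr1, -0.86 for Pkm, -0.63 for Srebf1, -1.33 for Elovl6, -0.054 for Scd1, -0.43 for Lpl, -0.26 for Dhcr7, -0.44 for mt-Co1, -0.77 for Tapbp, -0.58 for H2-Q10, -0.057 for Socs3, -0.26 for Insr, 1.70 for Socs2, -0.33 for Tfrc, -1.31 for Tfr2, -0.33 for Cenpf and -0.013 for S100a9. F7, Meg3, Notum, Socs3, Tfrc, Cenpf and S100a9 had 0 UMIs in suffix 1 there and stand at the floor of 3 UMIs. Their direction cannot be read there. Counting intervals lay below 0 for Apob, Trf, Cyp3a11, Slco1b2, Gulo, Cyp2a5, Abcb11, Mup11, mt-Co1, H2-Q10 and Tfr2. They included 0 for the other genes with UMIs in suffix 1. The gene mt-Co1 is 1 of those that chose the cells. Without bile duct marker cells alone Spp1, 1 of the markers that chose those cells, came to 0.41 (-0.23 to 1.10). In cells with a Malat1 UMI 134 of 137 kept theirs, and Egr1 came to -0.26, Ly6e to -0.50 and Xaf1 to -0.23. Depth limits low genes: a gene with 0 UMIs in the 2362 cells of suffix 1 may still be in up to 0.127% of them with a UMI.

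No paired analysis was possible because each suffix is 1 library and the suffixes carry no replicate number.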

Other observations

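Genes seen in the hepatocytes of 1 library and close to absent from the other 3 were listed after the data had been seen, as those with at least 100 UMIs in 1 suffix and at most 0.5 CPM in each of the others. There were 3. Moxd1, a copper-dependent monooxygenase-like gene, had 444 UMIs in 334 hepatocytes of suffix 3 (7.99%), or 30.7 CPM, with at most 7 in 1 cell. It had 0 UMIs in the hepatocytes of suffixes 1, 2 and 4, which allows shares of up to 0.127%, 0.0684% and 0.0584% of cells with a UMI, and the other passing barcodes of suffix 3 held 114 more. Gm16867, a predicted gene, had 118 UMIs in 112 hepatocytes of suffix 1 (4.74%) and 0 in suffixes 2, 3 and 4, with 447 UMIs in the other barcodes of suffix 1. Msmp, a small secreted protein gene, had 240 UMIs in 7 hepatocytes of suffix 1, of which 149 lay in 1 cell.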
